A study of Mus musculus with 30 samples.

Results

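The septin cytoskeleton genes of the hippocampus were examined in mice reared in social isolation (SI) or in groups (GH). The members were the 9 genes Septin2, Septin3, Septin4, Septin5, Septin6, Septin7, Septin8, Septin9 and Septin11, found by Ensembl ID among the 17477 genes of the count table, where older annotations write Sept2 for Septin2 and so on. They were chosen by the SI and GH levels of these same mice, in which Septin2 was lower under SI, so their SI and GH levels are given as a description, and nothing is read from the counts of calls in those contrasts. All 9 passed the filter on low counts in both sexes.

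RNA-seq was done on hippocampal RNA of 30 C57 BL/6J mice, each mouse being 1 library. Females comprised 8 SI and 7 GH mice, and males 7 SI and 8 GH mice. The isolated animals were kept singly and the controls in shared cages from weaning into adulthood, and the labels name no transgene or drug in any group. The labels give the sex, the housing and the animal number, but not the cage, so p-values measure the spread between mice without regard to cage mates.

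Septins are GTP-binding proteins that join into rods of several different members, and the rods polymerise into filaments, rings and gauzes under the plasma membrane. By sequence they fall into a Septin2 group (with Septin1, Septin4 and Septin5), a Septin3 group (with Septin9), a Septin6 group (with Septin8, Septin10 and Septin11) and Septin7, which sits in the core of most rods. In the brain they are known at the base of dendritic spines, at axon and dendrite branch points, on presynaptic membranes and in glia, where they act as diffusion barriers and as scaffolds for exocytosis and myelin.

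Total counts on genes were from 18809307 to 100844898 per library, and a septin member had from 221 to 63136 counts in a library, the fewest for Septin2 in SI male 25. Summed levels of 6 hippocampal markers were from 632 to 1203 CPM (counts per gene scaled to a common library total with TMM factors), and no marker of any list was at 0 in any mouse. Those of 7 choroid plexus markers varied far more, from 41.2 to 4948 CPM. Their mean log2 level was 0.96 to 2.45 in GH males 1, 2 and 3 and SI males 7 and 8. In the other males it was 4.70 to 5.60. SI males 25, 33 and 39 stood apart: their counts fell on shorter transcripts (count-weighted mean log2 transcript length 11.18 to 11.25, against 11.39 to 11.65 in the other 27 mice), and on the first principal component they were at 63.4 to 103, against -37.6 to 0.75 in the other 12 males. They also had the highest mean log2 levels of the 7 microglial markers (5.60 to 5.80, against at most 5.39 in the other mice) and of the 6 endothelial markers (5.46 to 5.66, against at most 5.27). Values in males are therefore given with and without these 3 libraries. Since whole tissue was sequenced, fewer cells of a type and less RNA per cell cannot be told apart.

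Septin2, a broadly expressed subunit that binds non-muscle myosin and rings the base of the primary cilium, lies on chromosome 1 (95375541 to 95406837 in NCBIM37, plus strand). Of the 9 members it had the highest ratio of its highest to its lowest mouse (35.1 against 9.38 CPM), so its upstream sequence is shown. The 238 bases before the first annotated base of the gene (RefSeq, GRCm38.p6, chr1:93478743-93478980, plus strand) read 5′ to 3′ as follows, with matches to the motifs searched in capitals.

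Septin2 promoter: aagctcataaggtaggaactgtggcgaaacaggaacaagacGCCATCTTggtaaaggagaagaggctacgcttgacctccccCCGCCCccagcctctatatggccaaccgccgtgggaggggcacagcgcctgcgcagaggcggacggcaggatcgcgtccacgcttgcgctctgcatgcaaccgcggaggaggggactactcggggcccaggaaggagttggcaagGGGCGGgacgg

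The stretch holds 19 CG pairs. RefSeq windows were given for 6 of the 9 members, 15 windows in all, and the 2 Septin2 windows hold 22 and 31 CG pairs in the 250 bases before the start, against a median of 6 over all 32851 windows. The motifs, picked after the sequence was seen and searched on both strands, were GGGCGG (in 32.7% of all windows), GCCATNTT (3.91%), CCAAT (33.8%), TATAAA (12.4%) and TGACG (17.8%). GGGCGG matched on each strand, GCCATNTT matched on the plus strand, no matches overlapped, and the other motifs have no match in the printed stretch. The percentages are for windows of 250 bases, and TGACG is in both Septin2 windows when all 250 bases are searched. These matches are a description of the letters, and nothing in the data measured the promoter.

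In GH males Septin2 was at 22.9, 24.5, 25.4, 26.3, 27.4, 28.5, 28.9 and 31.2 CPM. In SI males it was at 9.38 in male 25, 10.9 in male 33, 14.1 in male 39, 14.9 in male 38, 19.4 in males 7 and 8, and 23.6 in male 27. Thus 6 of 7 SI males lay below the lowest GH male and male 27 lay among the GH males. The SI males averaged 15.95 ± 5.09 CPM (SD, n = 7) and the GH males 26.9 ± 2.66 CPM (SD, n = 8), a ratio of 0.593. Without males 25, 33 and 39 the SI mean was 19.3 ± 3.55 CPM (SD, n = 4), the ratio was 0.718, and 3 of the 4 mice were below the lowest GH male.

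In females Septin2 was spread over the same range in both groups. GH females had a lowest value of 22.2 CPM, a median of 28.9 and a highest of 33.9, and SI females had 21.4, 29.8 and 35.1. SI females averaged 28.9 ± 5.37 CPM (SD, n = 8) and GH females 28.2 ± 4.36 CPM (SD, n = 7), and 2 SI females lay below and 1 above the GH range. The lower Septin2 level that chose the family thus lay in the males.

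**Figure D1:**
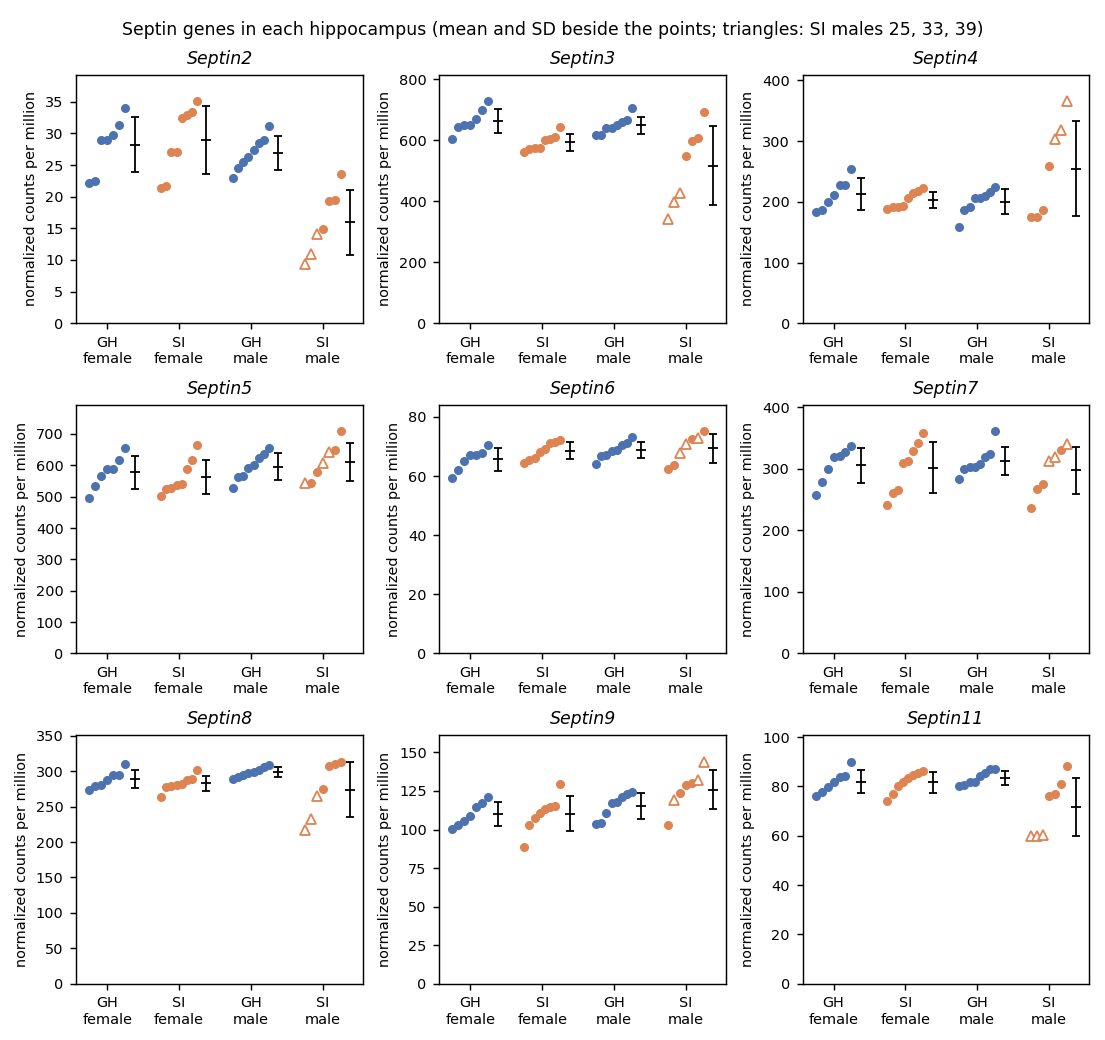
Normalized counts (CPM, vertical axes, from 0) of the 9 septin genes in every mouse, by housing and sex, with the mean and SD beside the points and open triangles for SI males 25, 33 and 39. Septin2 was below the lowest GH male in 6 of 7 SI males. The triangles lie outside the range of the other mice for Septin2, Septin3, Septin4 and Septin11. For Septin2 the gap is small, at 14.1 against 14.9 CPM.

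Of the other Septin2 group members, Septin5, which binds syntaxin and acts on vesicle release, lies on chromosome 16 (18621904 to 18630004, minus strand). Its level differed little between groups. GH females had 496 to 655 CPM (median 589), SI females 503 to 666 (median 539), GH males 528 to 657 (median 597) and SI males 544 to 708 (median 609). SI males 25, 33 and 39 were at 544, 609 and 643, inside the range of the other mice. In the NCBIM37 annotation 593 exon bases of Septin5 are shared with Gp1bb on the same strand, and Gp1bb is also in the table. Reads from this stretch could be assigned to either gene, and how many Septin5 counts this touches was not measured.

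Septin4, known from glia and from presynaptic dopamine terminals and made in several splice forms, lies on chromosome 11 (87382405 to 87404041, plus strand). In SI males 25, 33 and 39 it was at 366, 318 and 303 CPM, above all 27 other mice, which had 159 to 259. The SI male mean was 255 ± 77.7 CPM (SD, n = 7) against 200.01 ± 20.9 in GH males (SD, n = 8), and without the 3 libraries it was 199 ± 40.8 (SD, n = 4). SI females had a mean of 203 ± 13.6 CPM (SD, n = 8) and GH females 213 ± 25.6 CPM (SD, n = 7), with no SI female outside the GH range. The 3 libraries with the highest Septin4 were also those with short transcripts and high microglial and endothelial markers, and the part of these in the result was not tested.

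Septin3, a neuronal septin found at nerve terminals, lies on chromosome 15 (82105365 to 82124872, plus strand) and was the member whose SI mean was below the GH mean by over 10% in both sexes. SI females had 561 CPM at the lowest, a median of 588 and 645 at the highest, and GH females 605, 652 and 728, so that 6 of the 8 isolated females had less than any GH female. The means were 593 ± 27.5 (SD, n = 8) and 664 ± 40.3 (SD, n = 7), a ratio of 0.893. SI males were at 342, 398 and 427 CPM in males 25, 33 and 39 and at 547, 598, 609 and 694 in males 38, 27, 7 and 8. GH males had 618 to 705 with a median of 645, and 6 of 7 SI males were below the lowest of them. The ratio of means was 0.795 in males and 0.942 without the 3 libraries, when 3 of 4 SI males were still below the GH range.

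Septin9, the other member of the Septin3 group here, which bundles microtubules and actin, lies on chromosome 11 (117060975 to 117223639, plus strand). GH males had 104 to 124 CPM (median 118) and SI males 103 to 144 (median 129), with 4 of 7 SI males above the highest GH male and male 27 below the lowest. In females the groups overlapped, at 88.9 to 129.5 under SI and 100.4 to 121 under GH. SI males 25, 33 and 39 were at 144, 132 and 119. The male means were 126 ± 12.8 CPM under SI (SD, n = 7), 122 ± 12.7 without those 3 (SD, n = 4) and 115 ± 8.19 under GH (SD, n = 8).

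Septin7, the core subunit, known at the base of dendritic spines, lies on chromosome 9 (25056204 to 25116150, plus strand). It had 257 to 336 CPM in GH females, 241 to 358 in SI females, 283 to 361 in GH males and 236 to 341 in SI males. Males 38, 8 and 7 were below the lowest GH male, at 236, 267 and 275, while males 25, 33 and 39, at 341, 313 and 318, were within the GH range. SI males averaged 297 ± 38.2 (SD, n = 7) and GH males 312 ± 23.2 (SD, n = 8), closer than the spread of either group, but without males 25, 33 and 39 the SI mean was 277 ± 38.96 (SD, n = 4), 11.3% below that of GH males.

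Septin6, Septin8 and Septin11, of the Septin6 group, had SI and GH means within 5% of each other in females. Septin6, which lies on the X chromosome (34451321 to 34531789, minus strand), had 59.4 to 70.6 CPM in GH females and 64.6 to 72.2 in SI females, and 64.2 to 73.2 in GH males and 62.5 to 75.1 in SI males, where both ends were set by mice other than males 25, 33 and 39. Septin8, a partner of the vesicle protein VAMP2 on chromosome 11 (53332759 to 53363067, plus strand), was the tightest member in GH males, at 289.6 to 309 CPM, a coefficient of variation of 2.29%. In SI males it split: males 25, 33, 39 and 27 were at 216, 232, 264 and 274, below all GH males, and males 38, 8 and 7 were at 308, 309.6 and 314. In females it had 264 to 302 under SI and 274 to 310.03 under GH. Septin11, known in dendritic spines and at inhibitory synapses, lies on chromosome 5 (93522483 to 93605473, plus strand) and was at 59.9, 59.8 and 60.1 CPM in SI males 25, 33 and 39, below the 73.9 to 90.1 of all other mice. Its SI male mean was 71.8 ± 11.8 (SD, n = 7) against 83.5 ± 2.88 (SD, n = 8) in GH males, and 80.7 ± 5.58 (SD, n = 4) without those libraries, and in females it had 73.9 to 86.3 under SI and 76.2 to 90.1 under GH.

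No septin had SI and GH groups that did not overlap. Over all 16391 genes kept in the 30 libraries, 0.0244% had every SI male below every GH male and 0.0305% had every SI male above, and in females the shares were 0.183% and 0.11%.

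Fitted differences, which adjust for surrogate variables (estimated factors of unwanted variation, 3 in females and 2 in males), were computed for all genes. In males the Log2FC of SI against GH was -0.52 (SE 0.11) for Septin2, -0.18 (SE 0.0714) for Septin7, -0.17 (SE 0.0588) for Septin3 and -0.10 (SE 0.0532) for Septin11, and the other 5 members lay between -0.01 and 0.07. In females Septin3 was at -0.13 (SE 0.0379) and Septin2 at 0.12 (SE 0.0644), and the other 7 lay between -0.09 and 0.06. Septin7 thus had a fitted difference larger than its difference of means, while Septin8, whose SI male mean was 8.24% below that of GH males, had a fitted difference of -0.01 (SE 0.0506). The median Log2FC of the 9 members was -0.02 in females and -0.01 in males, against 0.01 and -0.00198 over all genes tested.

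By the quasi-likelihood test of edgeR, with Benjamini-Hochberg adjustment over all genes, 0 of 9 members were DEGs in females, where 3.89% of 16026 genes were called, and 0 of 9 in males, where 0% of 15833 were called. At an unadjusted p under 0.05 the counts were 1 of 9 in females, beside 20.2% of all genes, and 3 of 9 in males, beside 13%. DESeq2 with the same surrogate variables called 1 member in each sex, Septin3 in females (9.55% of 13229 genes with an adjusted p) and Septin2 in males (0.353% of 12456). These contrasts chose the family, so nothing is read from the counts.

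The male calls changed when single mice were left out, with the surrogate variables estimated anew in each fit. Without SI male 27, the one whose Septin2 lay among the GH males, edgeR called 2413 of 15790 genes (15.3%) and 3 of 9 members, with a Log2FC of -0.70 for Septin2, -0.24 for Septin7 and -0.23 for Septin3. Without SI male 38, 1 member was called, Septin2, beside 128 of 15965 genes. Without males 25, 33 and 39 all 9 members had a negative Log2FC, beside 52.3% of all genes, and 0 were called, beside 0.00616% of 16241 genes. In that fit Septin2 was at -0.28 (SE 0.0794) and Septin3 at -0.08 (SE 0.0347). The other members lay between -0.07 and -0.03, with SE from 0.0342 to 0.0629. That fit held 4 surrogate variables, and the plain means of Septin5, Septin8 and Septin9 in the 4 remaining SI males were 4.08%, 0.883% and 5.43% above those of GH males. At an unadjusted p under 0.05 there were then 2 of 9 members, beside 6.29% of all genes. DESeq2 without those libraries also called 0, beside 26 of 16241 genes.

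**Figure D2:**
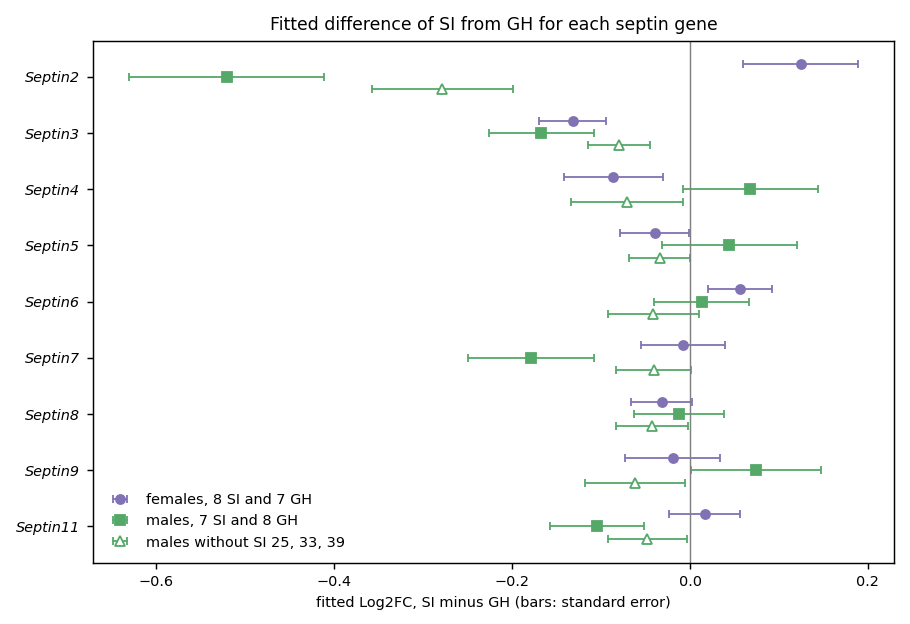
Fitted Log2FC of SI minus GH (horizontal axis, bars: standard error) of each septin gene in females, in males and in males without SI males 25, 33 and 39. Septin2 in males lies farthest from 0, at -0.52, and at -0.28 without the 3 libraries. In females it lies at 0.12, against a log2 ratio of means of 0.035.

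Whether housing acted differently in the sexes was asked with an interaction term in 1 fit of all 30 mice. The Log2FC of SI against GH was greater in females than in males by 0.55 (SE 0.168) for Septin2, 0.18 (SE 0.0771) for Septin7 and 0.13 (SE 0.0581) for Septin11, and the other 6 members lay between -0.10 and 0.08. By edgeR 0 of 9 members and 0 of 16391 genes passed the adjusted threshold, a background of 0%, and 3 of 9 members had an unadjusted p under 0.05, beside 7.49% of all genes. DESeq2 called 0 members and 8 of 16391 genes (0.0488%). Without SI male 27 edgeR called 2 members, Septin2 and Septin7, and 281 of 16372 genes (1.72%), and without SI male 7 it called 0 members and 385 of 16373 genes. This term contains the male contrast that chose the family, so it is no independent test of Septin2.

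The sexes themselves did not enter the choice of members, and they were compared in GH mice, within the fit that also held the SI mice. By edgeR 0 of 9 members were called between GH females and GH males, where 6.39% of 16391 genes were, and 1 had an unadjusted p under 0.05, beside 26.5% of all genes. That 1 was the X-linked Septin6, with a Log2FC of females against males of -0.08 (SE 0.0374, edgeR adjusted p = 0.189). Septin2 was at 0.08 (SE 0.113, edgeR adjusted p = 0.701) and Septin9, which had the largest fitted size, at -0.08 (SE 0.0657, edgeR adjusted p = 0.452). These values turned on SI males 25, 33 and 39: with those mice out of the fit Septin2 was at -0.10, Septin9 at 0.01 and Septin6 at -0.03, and 0 members were called. DESeq2 also called 0 members, where it called 1942 of 16391 genes (11.8%).

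Per transcript length, the 9 members covered a range of more than an order of magnitude with the same lowest gene in every group. In GH males the medians were 279 CPM per kilobase for Septin5, 136 for Septin3, 127 for Septin7, 119.8 for Septin4, 65.3 for Septin8, 30.4 for Septin9, 16.6 for Septin11, 14.7 for Septin6 and 7.11 for Septin2. The range of Septin7 overlapped with those of Septin3 and Septin4 in every group, Septin3 lay above Septin4 without overlap in GH males and overlapped with it in the other groups, and the order of the 3 medians differed between groups. In SI mice Septin11 and Septin6 overlapped too. Septin5 was above and Septin2 below every other member in every mouse of each group. Septin2 made up 0.896% ± 0.0959 (SD, n = 8) of the counts per length summed over the 9 members in GH males and 0.537% ± 0.186 (SD, n = 7) for SI males, or 0.657% ± 0.142 (SD, n = 4) without males 25, 33 and 39. Its share in SI females was 1.01% ± 0.202 (SD, n = 8) and in GH females 0.945% ± 0.152 (SD, n = 7).

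The order rests on the annotated length used. With coding length in place of transcript length, Septin3 came first in GH females, with a median of 643 CPM per kilobase of coding sequence, and Septin5 second at 514, while Septin2 was still the lowest at 26.6. The lengths are those of the GENCODE vM1 transcripts on NCBIM37, and which isoforms the hippocampus used was not measured in a table of counts per gene.

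**Figure D3:**
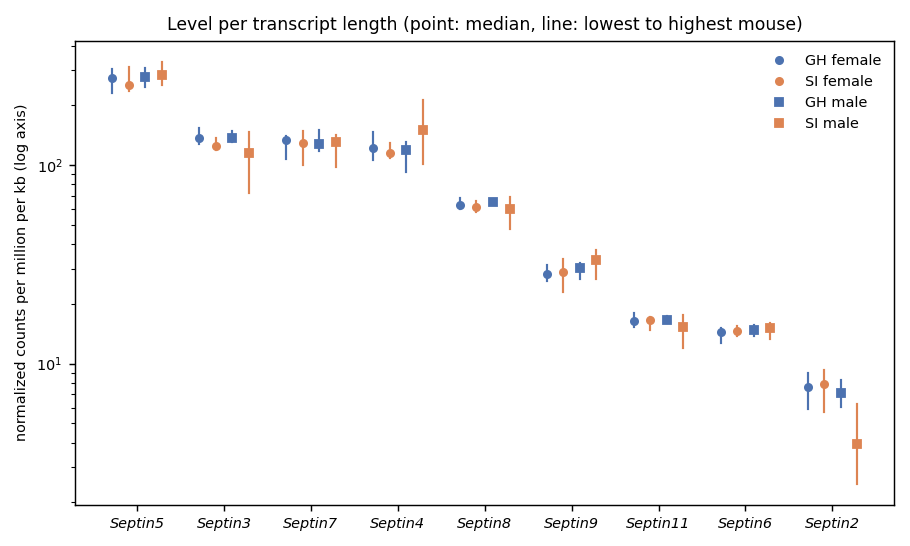
Level per transcript length (log axis, CPM per kilobase) of the septin genes by housing and sex, with the median as a point and the lowest to highest mouse as a line. Septin5 was highest and Septin2 lowest in each group, at medians of 279 and 7.11 in GH males.

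Across mice the members followed different cell type markers. Pearson's r was computed between residuals from the 4 group means over the 27 mice without SI males 25, 33 and 39. It is a description with no test, since all points share the libraries and their normalization. Septin8 and Septin9 went with the list of 8 neuronal markers (r = 0.824 and 0.777) and Septin9 also with the 6 hippocampal markers (r = 0.763) and against the astrocyte markers (r = -0.665), Septin7 with the 8 astrocyte markers (r = 0.768) and the 7 microglial markers (r = 0.712) and against the hippocampal markers (r = -0.725), Septin5 with the microglial markers (r = 0.657), and Septin4 with the 10 oligodendrocyte markers (r = 0.673). With the mean log2 transcript length of the library, r over these mice was -0.678 for Septin5, -0.661 for Septin7 and -0.645 for Septin4. It was 0.546 for Septin9 and 0.316 for Septin8, and its part in these likenesses was not tested. Of the 9 marker lists Septin2 followed none beyond r = -0.454 (neuron) and 0.435 (astrocyte), and Septin3 none beyond -0.487 (thalamus) and -0.472 (choroid plexus).

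Among themselves the members moved in more than 1 direction. Over the same 27 mice Septin2 had r = 0.465 with Septin3, -0.557 with Septin8 and -0.536 with Septin9, and Septin7 had r = -0.594 with Septin9. With all 30 mice, which add SI males 25, 33 and 39, r of Septin2 was 0.759 with Septin3, -0.645 with Septin4 and 0.411 with Septin8, so that its r with Septin8 changed sign with these libraries.

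**Figure D4:**
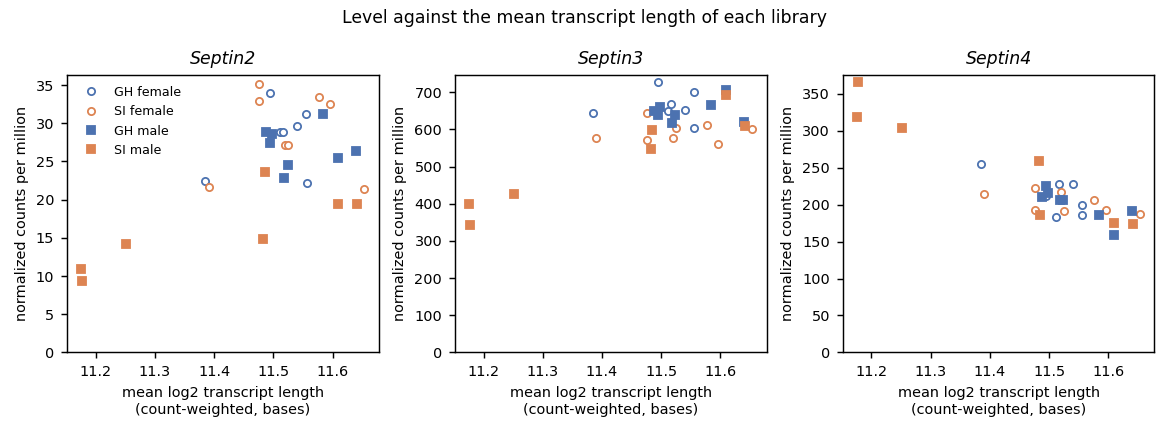
Normalized counts (CPM) of Septin2, Septin3 and Septin4 (vertical axes) against the count-weighted mean log2 transcript length of each library (horizontal axes), 1 point per mouse. SI males 25, 33 and 39, at 11.18 to 11.25, have the lowest Septin2 and Septin3 and the highest Septin4 levels, and the other mice lie between 11.39 and 11.65.

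Some library properties moved with the levels of some members, and their part in the result was not tested. Over the 27 mice the r of Septin2 with the mean log2 transcript length was 0.0981, while over 30 mice it was 0.582, and for Septin4 the values were -0.645 and -0.862. With the endothelial markers r over the 27 and the 30 mice was -0.125 and -0.566 for Septin2, -0.408 and -0.788 for Septin3, 0.589 and 0.825 for Septin4 and -0.368 and -0.742 for Septin11. With the microglial markers it was 0.0449 and -0.524 for Septin2, 0.00513 and -0.724 for Septin3, 0.531 and 0.82 for Septin4 and 0.188 and -0.609 for Septin11. The r of each of these members with both lists was thus larger in size with the 3 libraries than without. SI males had fewer total counts than GH males (medians 25609585 and 49542256, exact permutation test, two-sided p = 0.0392, adjusted p = 0.235 over 22 tests of marker lists and library properties). Of the marker lists, thalamic markers differed by 0.44 on the log2 scale between SI and GH males (exact permutation test, two-sided p = 0.0457, adjusted p = 0.235), and SI males 38, 25 and 27 had mean log2 levels of 5.08, 4.53 and 4.39, against 3.46 to 3.92 in GH males. Endothelial markers differed by 0.15 between SI and GH females (exact permutation test, two-sided p = 0.0101, adjusted p = 0.222) and astrocyte markers by -0.23 (exact permutation test, two-sided p = 0.0213, adjusted p = 0.234). None of the 22 passed the adjusted threshold. With total counts the r of Septin2 was -0.438 over the 27 mice and -0.167 over the 30 mice. With the thalamic markers it was -0.0374 and 0.00428.

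The genes whose pattern was most like that of Septin2 over the 27 mice were Slc35d1 (r = 0.817), a nucleotide sugar transporter, Mcc (r = 0.798), Fyco1 (r = 0.796), an adaptor of autophagosome transport, Ubxn2a (r = 0.7945) and Tor1aip1 (r = 0.785), a torsin-binding protein of the nuclear envelope. Those most unlike it were Asphd1 (r = -0.874), Tmem59l (r = -0.828) and Pdcd7 (r = -0.821). Over all 30 mice Ubxn2a (r = 0.887) came first, followed by Fgd6, Tor1aip1, Msi2 and Pdlim5, and the lowest were Asphd1 (r = -0.934), Sh3bgrl3 and Ly6e. Fyco1 had 42.9 to 58.0 CPM in GH males and 18.4 to 57.8 in SI males, and Asphd1 18.1 to 24.1 and 18.5 to 45.2. Without males 25, 33 and 39 the SI males had 29.7 to 57.8 for Fyco1 and 18.5 to 28.9 for Asphd1.

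Beyond the septins, a list of 20 genes whose products bind or act with them was compared: Cdc42 and its effectors Cdc42ep1 to Cdc42ep5, the scaffolds and motors Anln, Myh9, Myh10, Map4 and Kif17, the enzymes Cdk5, Dyrk1a, Taok2, Hdac6, Arhgef18 and Xiap, and the synaptic and glial partners Stx1a, Snap25 and Slc1a3. All 20 were in the table and passed the filter. The list was written with earlier results of these data known, so its counts and p-values are no independent test. In females edgeR called 1 of 20, lower, beside 3.89% of all genes (2.93% lower), and 6 of 20 had an unadjusted p under 0.05, beside 20.2%. DESeq2 called 4 of 20 in females, beside 9.55% of 13229 genes with an adjusted p. In males edgeR called 0 of 20, beside 0% of all genes, and DESeq2 called 0 of 20, beside 0.353% of 12456 genes with an adjusted p. By edgeR and DESeq2, 2 and 3 of 20 had an unadjusted p under 0.05, beside 13% and 13.7% of all genes. The median Log2FC of the list was -0.03 in females and -0.03 in males, against 0.01 and -0.00198 over all genes.

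The gene called in females was Slc1a3, the astrocyte glutamate transporter GLAST. Its level was 499 to 700.0 CPM in SI females (median 596) and 662 to 882 in GH females (median 740), and the ranges overlapped, with a Log2FC of -0.24 (SE 0.0495, edgeR adjusted p = 0.014). The direction was the same under all 27 alternatives, with an adjusted p between 0.000163 and 0.141, and the call was kept when 11 of the 15 females were left out in turn and lost without GH female 48 or SI females 45, 63 or 68, and, by edgeR, also with no surrogate variables or with the position digit of the labels in their place. The astrocyte list moved the same way in these females, by -0.23, and its part in the result was not tested. In males Slc1a3 had a Log2FC of -0.21 (SE 0.103, edgeR adjusted p = 0.39) and, without males 25, 33 and 39, 0.03 (SE 0.0531, edgeR adjusted p = 0.97).

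The next smallest p-values belonged to Xiap, Snap25 and Map4, all in females. There DESeq2 called each of them (DESeq2 adjusted p = 0.0166, 0.0125 and 0.0319), beside 9.55% of 13229 genes with an adjusted p, and edgeR called none. Xiap, an inhibitor of caspases, had 58.0 to 73.02 CPM in SI and 64.1 to 81.9 in GH females, with a Log2FC of -0.15 (SE 0.0419, edgeR adjusted p = 0.0606). In males it was at -0.29 (SE 0.102, edgeR adjusted p = 0.318), and without males 25, 33 and 39 at -0.03 (SE 0.0455, edgeR adjusted p = 0.952). Snap25, a SNARE protein of vesicle fusion and also one of the neuronal markers, had 1524 to 1682 CPM in SI and 1356 to 1540.5 in GH females, with a Log2FC of 0.13 (SE 0.0379, edgeR adjusted p = 0.0678), and in males -0.02 (SE 0.0635, edgeR adjusted p = 0.9), or -0.01 (SE 0.0421, edgeR adjusted p = 0.992) without males 25, 33 and 39. Map4, a microtubule-associated protein, had 619.6 to 683 CPM in SI and 640.4 to 769 in GH females, with a Log2FC of -0.12 (SE 0.0407, edgeR adjusted p = 0.105).

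Septin1 and Septin10 completed the septins of the table, and Septin12 and Septin14 were not analysed here. Septin1, a Septin2 group member known from blood cells, had 1.33 to 2.36 CPM in GH males and 1.45 to 3.93 in SI males, with 4 of 7 SI males above the GH range, among them males 25, 33 and 39 at 2.93 to 3.93. Its Log2FC in males was 0.47 (SE 0.157, edgeR adjusted p = 0.312), and 0.20 (SE 0.161, edgeR adjusted p = 0.909) without these libraries. Septin10, of the Septin6 group, had 5.89 to 7.87 CPM in SI and 6.07 to 11.2 in GH females, with a Log2FC of -0.18 (SE 0.0649, edgeR adjusted p = 0.134), and over the 27 mice its r with the 7 choroid plexus markers was 0.657. Both are low, at 28 to 228 and 112 to 655 counts per library.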

How the data were processed

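Hippocampal RNA of 30 mice was sequenced after poly(A) selection. According to the submitters' processing notes and the study's methods, the authors trimmed reads with Trimmomatic 0.39, quantified them with Salmon 1.8.0 and used DESeq2 1.24.0, with GRCm39 (mm39) as the build. The authors deposited raw counts in 1 table of genes by mice, in whole numbers, in which each of the 17477 genes has at least 100 counts in all. The annotation release is not given in the sources used here. All 30 columns matched a mouse by name, and 0 columns had no sample. A gene table gave symbols for 16439 genes, and GENCODE vM1 (NCBIM37) gave transcript lengths for 15964. Promoter sequences are from RefSeq (GRCm38.p6).

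The members and the gene lists were chosen with earlier results of these data known. Some genes of the partner list are not reported here, and its counts are over the other 20. In R 4.3.3 with edgeR 4.0.16, low genes were removed with filterByExpr (minimum count 10 and minimum total 15), libraries were scaled by TMM, and surrogate variables were estimated by svaseq of sva 3.50.0, their number by its permutation method (20 permutations, seed 1). SI was tested against GH within each sex by glmQLFit and glmQLFTest, and the interaction and GH females against GH males in 1 fit of 4 groups with 4 surrogate variables. The Benjamini-Hochberg adjustment ran over all genes tested, with a threshold of 0.05. Log2 CPM used a prior count of 2. Single values were compared by exact permutation tests over the 6435 splits of 15 mice. Alternatives were DESeq2 1.42.0, limma 3.58.1 (voom with quality weights), DESeq2's size factors, other filters, other numbers of surrogate variables, the position digit of the labels, taking out the trend with length and GC in each library, and leaving out mice. Named were all septins in the table, every called partner and, as fewer than 4 were called, the partners with the 4 smallest p, and the 5 genes most like and the 3 most unlike Septin2. The steps were tested on simulated data. The errors given are those between mice.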

Additional observations from a re-analysis of the deposited data

How the results depend on the processing

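No paired analysis was made, because each mouse is in 1 group and the labels give no litter or cage that could pair mice. For members called in females, where the reported count was 0, DESeq2, limma-voom without surrogate variables, 4 surrogate variables and the length and GC trend removed each gave 1, in each case Septin3, and leaving out each mouse gave 0 to 1. In males, where the reported count was 0, DESeq2 gave 1, leaving out each mouse gave 0 to 3, and both alternatives added after seeing the data, without SI males 25, 33 and 39 and with no surrogate variables or DESeq2, gave 0. For the interaction leaving out each mouse gave 0 to 2, and for GH females against GH males each alternative gave 0. For partner genes called in females, where the reported count was 1, DESeq2 gave 4, 4 surrogate variables 3, limma-voom and the length and GC trend removed 2, no surrogate variables and the position digit 0, and leaving out each mouse 0 to 3. In males leaving out each mouse gave 0 to 4. Over all genes, leaving out each mouse gave 0 to 2413 of 15790 in males (15.3%, without SI male 27). For the interaction it gave 0 to 385 of 16373 (without SI male 7). Over all genes, 624 were called in females, where DESeq2 gave 1263, 4 surrogate variables 1083 and no surrogate variables or the position digit 0, the length and GC trend removed 1156 and leaving out each mouse 88 (without SI female 68) to 1428 (without GH female 78), and 0 in males, where DESeq2 gave 44. Between GH females and GH males 1047 were called, 1942 by DESeq2, 646 with no filter, 16 with no surrogate variables, 150 without SI males 25, 33 and 39, and 117 to 2660 leaving out each mouse. The cause of these changes was not tested.

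Septin2 in males was lower under SI in all 30 alternatives, with a Log2FC from -0.75 without surrogate variables to -0.28 without males 25, 33 and 39. A lower Septin2 chose the family, and the alternatives refit the same mice. The shared sign is therefore a description and no independent support. Septin3 was lower in all 27 alternatives in females (-0.18 to -0.11) and in all 30 in males (-0.33 to -0.08). Septin4 in males had the opposite sign in 5 of 30 and Septin2 in females in 3 of 27. Other members were less stable: in males Septin6 kept its sign in 19 of 30 and Septin8 in 22 of 30, and in females Septin9 in 19 of 27. Depth limits Septin1 most, at 28 to 228 counts per library.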
